A study of Rattus norvegicus with 30 samples.

Results

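The miR-183/96/182 cluster is a group of 3 microRNAs (miRNAs) made from neighbouring hairpins, and it was followed here in exosomes of rat urine after kidney injury. The members were found by name, as rno-miR-182, rno-miR-183-5p and rno-miR-96-5p, and they are 3 of the 122 miRNAs listed in any of the 5 daily tables. There are 110 listed miRNAs at day 1, 86 at day 2, 72 at day 3, 68 at day 7 and 79 at day 14, and a listed miRNA has reads in no fewer than 3 of a day's 6 libraries. All 3 members are listed at days 1 and 2, and miR-182 and miR-183-5p at days 3, 7 and 14, where miR-96-5p has no value.

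The injured group (IRI) was 3 Sprague-Dawley rats, rats 1, 2 and 13, whose left and right renal pedicles were clamped and then released, which is bilateral renal ischemia-reperfusion injury. The sham group was 3 rats of the same strain, rats 3, 6 and 9, that had the same operation without clamping. All were males, 10 weeks old and without any genetic change, and the same 6 rats gave urine on every day, so that the rat is the replicate (n = 3 a group). Small RNA was taken from frozen urine with an exosome kit. The values therefore describe what was shed into urine and not the kidney itself. They are scaled read counts, which give the level of a miRNA relative to the others in its library. How many exosomes were shed, and how much miRNA each held, was not measured.

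A miRNA is a short RNA that pairs with messenger RNAs through its seed, bases 2 to 8 from its 5′ end, and lowers their translation or stability. The 3 members of this cluster are cut from transcripts that run over their hairpins, and they are best known from sensory organs, above all the hair cells of the inner ear and the photoreceptors of the retina. Changes in the seed of miR-96 cause hearing loss in humans and mice. They are also made in epithelia and in many carcinomas, where miR-182 and miR-96 are known to act on FOXO transcription factors and miR-183 on the cytoskeletal linker ezrin.

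The mature sequences are printed because the seeds of the members differ at few positions. They come from RefSeq (assembly GRCr8), all on the minus strand of chromosome 4, 5′ to 3′, with the seed in capitals.
rno-miR-182: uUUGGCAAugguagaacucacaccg
rno-miR-96-5p: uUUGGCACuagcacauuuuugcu
rno-miR-183-5p: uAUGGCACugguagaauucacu

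These sequences are 25, 23 and 22 bases long and lie at chr4:59752249-59752273, chr4:59755901-59755923 and chr4:59756106-59756127. The hairpins of Mir96 and Mir183 are 97 bases apart, that of Mir182 lies 3533 bases from that of Mir96, and the whole stretch covers 3908 bases. A further annotated hairpin, Mir3553, lies on the opposite strand over Mir183. Its mature miRNA is listed in 0 of the 5 tables, and whether reads were counted by strand is not given in the sources used here.

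The 3 seeds are all different. The seeds of miR-182 and miR-96-5p, and those of miR-183-5p and miR-96-5p, have the same base at 6 of 7 positions, and those of miR-182 and miR-183-5p at 5 of 7. No other of the 109 listed miRNAs with a RefSeq sequence carries a seed of the cluster, and neither does any other of the 693 rat mature miRNAs in the reference. Outside the seed the closest pair is miR-182 and miR-183-5p, which share the run UGGUAGAA from base 9 of each. miR-96-5p shares UUUGGCA with miR-182 from base 1, and UGGCACU with miR-183-5p from base 3. The runs are shorter than the mature miRNAs, but how reads that match more than one member were assigned is not given in the sources used here. Short GG-rich motifs have been linked to the loading of miRNAs into exosomes. The motif GGAG, with GGAC as its first variant and with GGGG and also GGGC as the others, was searched on the miRNA strand only. One of them occurs in 0 of the 3 members and in 23 of the 109 listed miRNAs with a sequence (21.1%).

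The values are read counts that the authors scaled within each daily table, here called scaled signal, on about the scale of CPM (counts per 1e06 reads). In each library the low values are whole multiples of 1 step, which was taken as the worth of 1 read, and dividing by it gives the reads behind a value. The step was not checked against raw reads, so that read numbers and counting intervals hold only if it is worth 1 read. The paper's motif search counted more reads over its miRNAs than these units add up to, and the reason was not tested. A library held 211 to 50700 reads of listed miRNAs in these units. The depth differs most at day 1, with 11165 to 50700 reads in IRI libraries against 935 to 2125 in sham libraries. At day 14 the ranges are 651 to 1157 reads in IRI libraries and 666 to 1796 in sham libraries. Of the 13 miRNAs kept as kidney tubule and epithelium markers all were listed in at least 1 table, and their summed signal overlapped between groups on every day. Of 8 blood cell markers 3 were listed, and miR-451-5p, miR-144-3p, miR-223-3p, miR-142-5p and miR-150-5p were in none of the tables. Nearly all of the summed blood marker signal was miR-16-5p, which many cell types hold. The sum was higher in every IRI than in every sham library at days 1, 3 and 7, but the listed blood markers did not move together. At day 1 the limma difference was 2.03 for miR-16-5p, -1.08 for miR-486 and -0.35 for miR-142-3p, and the median difference of the listed blood markers was -0.35 at day 1 and -0.18 at day 3. At days 7 and 14 miR-16-5p was the 1 blood marker listed.

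**Figure D1:**
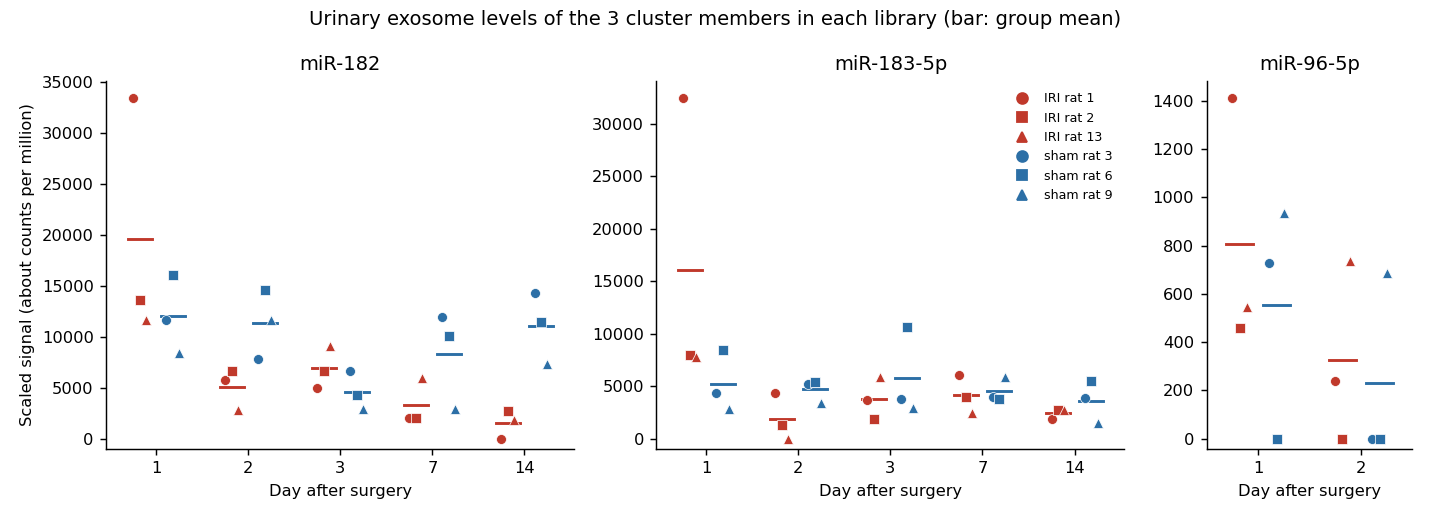
Scaled signal (about CPM) of miR-182, miR-183-5p and miR-96-5p on the y axis against day after surgery, 1 point for each library, with IRI in red left of sham in blue and bars at the group means. IRI rat 1 stands highest at day 1 in all 3 panels, and the miR-182 values of IRI rats lie below those of sham rats at days 2 and 14.

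miR-182 was the most abundant member. It was above 0 in 29 of 30 libraries, with a median of 7.5 reads and 5 or fewer reads in 12 libraries, and it took 0 to 2.26% of the listed reads (median 0.793%). Its median rank in a library was 23, and its best was 9.

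At day 1 miR-182 stood at 33470, 13626 and 11674 of scaled signal in IRI rats 1, 2 and 13, which rest on 806, 178 and 514 reads. In sham rats 3, 6 and 9 it stood at 11669, 16082 and 8428, from 16, 40 and 9 reads. The groups overlap, and IRI rat 1 alone was above every sham rat by a wide margin. IRI rats averaged 19590 ± 12060 and sham rats 12060 ± 3842 (SD, n = 3 each), a ratio of 1.62.

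At day 2 the values were 5755, 6618 and 2843 in IRI rats, against 7847, 14649 and 11663 in sham rats. Every IRI rat was below every sham rat, and the mean in IRI rats was 0.445 times that in sham rats. Of all miRNAs listed on that day, 11.6% were likewise lower in all IRI than in all sham libraries, so that the order of miR-182 is not rare among them. The reads behind the values were 24, 10 and 27 in IRI rats and 6, 27 and 17 in sham rats.

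At day 3 miR-182 had 4940, 6601 and 9128 in IRI rats and 6601, 4269 and 2902 in sham rats, which overlap. At day 7 it had 2031, 1986 and 5996 in IRI rats, from 1, 1 and 5 reads, and 11977, 10049 and 2910 in sham rats, from 3, 8 and 2 reads. These groups overlap through sham rat 9, and with so few reads a difference of this size cannot be resolved for a single rat.

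At day 14 the IRI rats had 0, 2687 and 1842, from 0, 2 and 2 reads, and the sham rats 14273, 11491 and 7339, from 11, 21 and 5 reads. Each sham rat was above each IRI rat, as for 11.4% of the miRNAs listed on that day. The 0 of IRI rat 1 allows up to 3 reads, or 2802 on this scale, which is still under the lowest sham value and is 0.259% of the listed reads. miR-182 made 0.307% and 0.177% of the listed reads in IRI rats 2 and 13, with exact (Clopper-Pearson) 95% intervals of 0.037 to 1.1% and 0.021 to 0.636%. In sham rats 3, 6 and 9 it made 1.55%, 1.17% and 0.751%, with intervals of 0.775 to 2.75%, 0.725 to 1.78% and 0.244 to 1.74%. For the 0 of IRI rat 1 the interval is 0 to 0.318%. The intervals cover counting error only, and that of IRI rat 2 overlaps with that of every sham rat. Those of IRI rats 1 and 13 overlap with that of sham rat 9.

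For the test, 500 was added to each value, the log2 was taken, and limma gave the IRI minus sham difference, with Benjamini-Hochberg adjustment over all miRNAs of the day and a threshold of 0.05. The added 500 makes differences of low values smaller than they are in the values themselves. For miR-182 the difference between IRI and sham was 0.57 (95% interval -0.64 to 1.77) at day 1, -1.12 (-2.50 to 0.25) at day 2, 0.56 (-1.0 to 2.13) at day 3, -1.15 (-2.95 to 0.65) at day 7 and -2.85 (-4.65 to -1.04) at day 14. The limma adjusted p was 0.762, 0.502, 0.861, 0.781 and 0.146 in that order, so that miR-182 passed the threshold on no single day. Without IRI rat 1 the difference at day 1 was 0.11, and with libraries scaled to the same total it was 0.19. Its unadjusted limma p at day 14, 0.00741, was the fourth smallest of 79 miRNAs, and its difference the third in size. Of the miRNAs of that day 5.06% were lower in IRI at an unadjusted p under 0.05, and 0 of 79 passed after adjustment (0%, with 9 unadjusted in either direction). The share that passed after adjustment was 0.909% at day 1, 1.16% at day 2, 1.39% at day 3 and 2.94% at day 7.

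The constant and the variance model decide the call at day 14. With a constant of 2000 the difference was -1.94 (limma adjusted p = 0.0458), and with an intensity trend in the fit -2.85 (limma adjusted p = 0.0357). Leaving aside the fit with lane as a term, given below, the limma adjusted p ran up to 0.506, at a constant of 50 (-4.07). Sequencing lane, named in the labels, moves with the group, since lanes 2 and 5 hold 12 IRI libraries and 0 sham libraries. The only pair of rats in 1 lane at day 14, IRI rat 2 and sham rat 3, had 2687 and 14273, a difference of -2.21. With lane as a term in the fit the difference of miR-182 at day 14 was likewise -2.21. That fit rests on this 1 pair, so that it cannot decide whether the difference holds apart from lane. At day 1 the only such pair, IRI rat 13 and sham rat 9, had 11674 and 8428, a difference of 0.45. At day 2 the same pair had 2843 and 11663, a difference of -1.86. At days 3 and 7 no lane holds both groups, so that lane and group cannot be told apart there. The summed blood cell markers, of which 1 of 8 was listed at day 14, overlapped between groups on that day (14733 to 21483 in IRI rats, 10275 to 15571 in sham rats). Their part in the difference of miR-182, and that of lane, was not tested further.

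**Figure D2:**
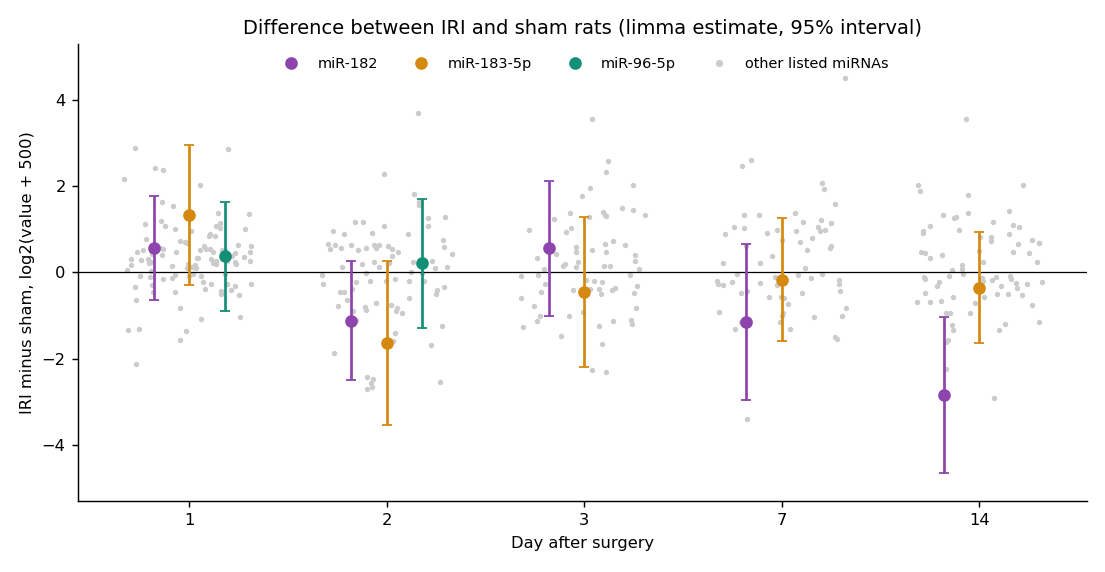
Difference between IRI and sham rats in log2(value + 500) on the y axis by day, with coloured points for the cluster members, bars for their 95% intervals and grey points for the other listed miRNAs. Only the interval of miR-182 at day 14 (-4.65 to -1.04) lies wholly on one side of 0, and no member passed the adjusted threshold on any day.

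miR-183-5p, which lies farthest upstream in the cluster, was above 0 in 29 of 30 libraries with a median of 3 reads, and had 5 or fewer reads in 20 of them. It took 0 to 2.19% of the listed reads (median 0.437%). Its median rank was 31.5.

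At day 1 miR-183-5p stood at 32431, 7961 and 7722 in IRI rats 1, 2 and 13, from 781, 104 and 340 reads, against 4376, 8443 and 2809 in sham rats 3, 6 and 9, from 6, 21 and 3 reads. IRI rats averaged 16038 ± 14197 and sham rats 5209 ± 2908 (SD, n = 3 each), 3.08 times as high in IRI rats, and the groups overlap through sham rat 6. The limma difference was 1.33 (95% interval -0.30 to 2.96, adjusted p = 0.370). Much of it rests on IRI rat 1, without which it was 0.67. The median difference of all miRNAs of that day was 0.30, and with libraries recentred on their median the difference of miR-183-5p was 1.31. With libraries scaled to the same total it was 0.97. Within lane 4, IRI rat 13 had 7722 and sham rat 9 had 2809, a difference of 1.31.

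At day 2 miR-183-5p had 4316, 1324 and 0 in IRI rats and 5231, 5425 and 3430 in sham rats. The 0 of IRI rat 13 comes from a library with 10543 listed reads and allows up to 3 reads, or 0.028% of them, while sham rat 9, in the same lane, had 5 of 1955 reads (0.256%). The limma difference was -1.64 (95% interval -3.55 to 0.26, adjusted p = 0.502), and the groups overlap through IRI rat 1. The size of this difference is loose, at -0.79 without IRI rat 13, -2.42 without IRI rat 1 and -2.80 with a constant of 50. The same IRI rat 13 had 27 reads of miR-182 on that day, so that the pair parted within 1 library.

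At days 3, 7 and 14 no difference in miR-183-5p was larger than the spread between rats. It had 3705, 1886 and 5836 in IRI rats and 3772, 10673 and 2902 in sham rats at day 3. At day 7 it had 6092, 3971 and 2398 in IRI rats and 3992, 3768 and 5820 in sham rats. The groups overlap on both days, with no more than 4 reads in any library of day 7.

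At day 14 the IRI rats had 1868, 2687 and 2762 of miR-183-5p, and the sham rats 3893, 5472 and 1468. The limma differences of days 3, 7 and 14 were -0.45 (95% interval -2.20 to 1.29), -0.17 (-1.59 to 1.26) and -0.36 (-1.64 to 0.93), with adjusted p of 0.912, 0.886 and 0.768. The intervals leave room for changes of more than 2-fold either way at day 3, so that an equal level is not shown.

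miR-96-5p, the member with the known role in hearing, was scarce. At day 1 it had 1412, 459 and 545 in IRI rats, from 34, 6 and 24 reads, and 729, 0 and 936 in sham rats, from 1, 0 and 1 reads. At day 2 it had 240, 0 and 737 in IRI rats and 0, 0 and 686 in sham rats, with at most 7 reads in a library. It was above 0 in 8 of these 12 libraries, and the groups overlap on both days.

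In the sham library with 0 reads of miR-96-5p at day 1, up to 3 reads are allowed, or 1206 on this scale, which is above the values of IRI rats 2 and 13. A difference in miR-96-5p was therefore not detectable at this depth. The limma difference was 0.37 (95% interval -0.89 to 1.64, adjusted p = 0.837) at day 1 and 0.21 (-1.28 to 1.7, adjusted p = 0.918) at day 2. In the deep libraries of IRI rats at day 1, where the counts are largest, miR-96-5p made 0.095%, 0.054% and 0.047% of the listed reads, far under both other members of its cluster. The opposite arms miR-182-3p, miR-183-3p and miR-96-3p were listed in 0 of the 5 tables.

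**Figure D3:**
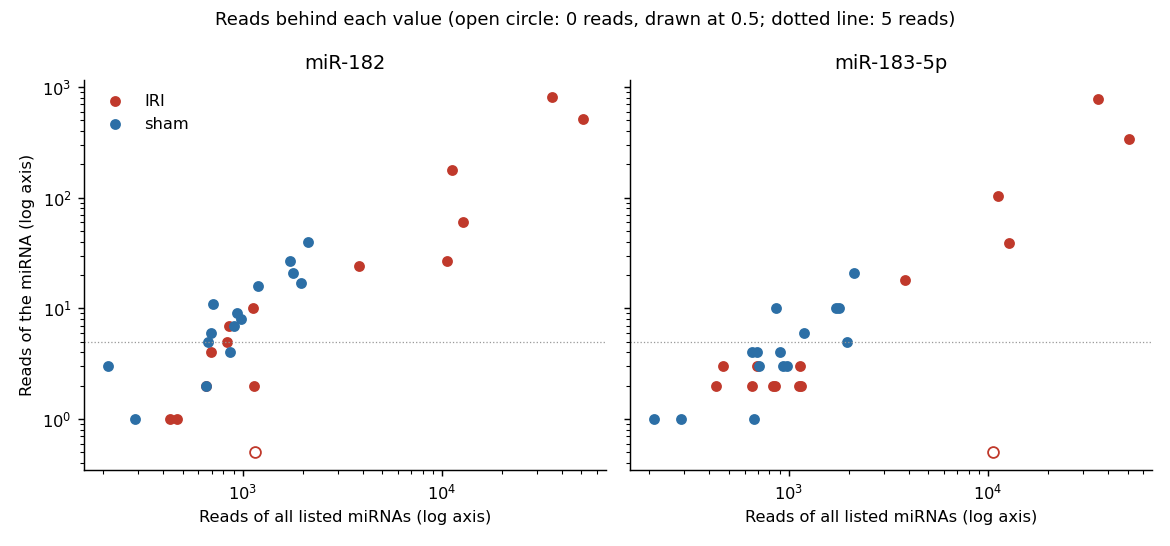
Reads of miR-182 (left) and miR-183-5p (right) against the reads of all listed miRNAs in the same library, both on log axes, with IRI in red and sham in blue, an open circle for 0 reads and a dotted line at 5 reads. The 3 IRI libraries of day 1 hold 178 to 806 reads of miR-182, and 12 of the 30 libraries hold 5 or fewer.

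The order of the days was read within each group, with the limit that each table was scaled on its own. In IRI rats the mean of miR-182 was highest at day 1 (19590), then at day 3 (6890 ± 2109), day 2 (5072 ± 1978), day 7 (3338 ± 2302) and day 14 (1510 ± 1374). Only the values of days 1 and 3 do not overlap among these neighbours. In sham rats the order was day 1 (12060), day 2 (11386 ± 3409), day 14 (11034 ± 3489), day 7 (8312 ± 4777) and day 3 (4591 ± 1870), and every pair of neighbours overlaps. The lowest mean was at day 3 in sham rats, on 1 to 7 reads a library, and at day 14 in IRI rats. Each overlaps with day 7 of its group, so that a difference in timing between the groups is not shown.

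For miR-183-5p the order in IRI rats was day 1 (16038), day 7 (4154 ± 1854), day 3 (3809 ± 1977), day 14 (2439 ± 496) and day 2 (1880 ± 2211). Again only day 1 is clear of its neighbour. The sham rats kept between 3611 ± 2017 at day 14 and 5782 ± 4258 at day 3, and all neighbours in their order overlap. IRI rat 1 holds the highest value of both miRNAs over all 30 libraries, at day 1.

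Whether the difference between the groups changed over time was tested with limma over the 56 miRNAs listed on all 5 days. The difference of miR-182 was higher at day 1 than at day 14 by 3.41 on the log2 scale (SE 0.89, 95% interval 1.58 to 5.25), with a limma adjusted p of 0.0443. Of the 56 miRNAs miR-182 was the 1 that passed (1.79%). The fit took the 30 libraries as independent, though they come from 6 rats. With the rat as a block the limma adjusted p was 0.0283, and no difference between the days within each rat was tested. The change is made of a positive difference at day 1 that did not pass alone and a negative one at day 14 that did not pass alone. For miR-183-5p the same contrast gave 1.69 (-0.32 to 3.69, limma adjusted p = 0.537).

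The size of this change leans most on IRI rat 1, and its call also on each sham rat. Without IRI rat 1, which had the highest value at day 1 and the 0 at day 14, it was 2.138 (limma adjusted p = 0.404). It was 3.21, 3.58 and 3.44 without sham rat 3, 6 or 9 (limma adjusted p = 0.196, 0.213 and 0.132), and 4.11 and 3.99 without IRI rat 2 or 13 (0.0407 and 0.0361). With libraries recentred on their median it was 3.31 (0.0936), and with libraries scaled to the same total 3.04 (0.130). The IRI libraries of day 1 include the deepest of all, and the part of depth in the change was not tested. The blood cell markers listed on that day, 3 of 8, summed to 32886 to 77694 in IRI rats and 9482 to 14047 in sham rats, a sum carried by miR-16-5p, while miR-486 and miR-142-3p had negative differences (-1.08 and -0.35). Their part was not tested either.

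In the contrast of the injury state (days 1 and 2) with the recovery state (days 7 and 14), as the study names them, the IRI minus sham difference of miR-182 was 1.72 higher in the injury state (SE 0.63, 95% interval 0.42 to 3.02), but did not pass (limma adjusted p = 0.161, 3.57% of miRNAs passed). For miR-183-5p it was 0.11 (-1.31 to 1.53, limma adjusted p = 0.928). Over the mean of all 5 days for each rat the IRI minus sham difference of miR-182 was -0.80 (-1.57 to -0.03), with a limma adjusted p of 0.271 where 3.57% passed. Without day 14 it was -0.29 (limma adjusted p = 0.778). That of miR-183-5p was -0.26 (-1.17 to 0.66, limma adjusted p = 0.797).

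The ratio of miR-182 to miR-183-5p within a library does not depend on the scaling. miR-182 had more reads than miR-183-5p in most libraries, and miR-183-5p had more in 4 of 15 IRI and 2 of 15 sham libraries. With 0.5 read added to each, the median log2 ratio was 0.41 in IRI libraries and 1.22 in sham libraries. The ratio ran from -2.32 to 5.78 in IRI libraries, against -1.22 to 1.87 in sham libraries.

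At day 1 there were 1.03, 1.71 and 1.51 reads of miR-182 for 1 of miR-183-5p in IRI rats 1, 2 and 13, against 2.67, 1.90 and 3.00 in sham rats 3, 6 and 9. Every IRI ratio was below every sham ratio. The log2 ratio averaged 0.47 ± 0.38 in IRI rats against 1.23 ± 0.28 in sham rats (SD, n = 3 each), a difference of -0.76 (2-sided exact permutation p = 0.1, 0.3 after adjustment over the 6 ratio tests). The miR-182 share of the pair was 50.8%, 63.1% and 60.2% in IRI rats, with exact 95% intervals of 48.3 to 53.3%, 57.2 to 68.8% and 56.8 to 63.5%. In sham rats the shares of 72.7%, 65.6% and 75.0% had intervals that reach down to 49.8%, 52.3% and 42.8%. The sham intervals thus take in most of the IRI shares.

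At day 14 the pair had 0 against 2, 2 against 2 and 2 against 3 reads of miR-182 and miR-183-5p in IRI rats, and 11 against 3, 21 against 10 and 5 against 1 in sham rats. Here the log2 ratio averaged -0.94 ± 1.22 in IRI rats against 1.54 ± 0.45 in sham rats (SD, n = 3 each). The difference was -2.48 (exact permutation p = 0.1, adjusted 0.3), and again each IRI rat was below each sham rat. Its size depends on the added constant and on IRI rat 1. It was -1.62 with 2 reads added and -1.78 without that rat. An exact p of 0.1 is the smallest that 3 rats against 3 can give, so that no ratio could pass 0.05.

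On the days between, the ratio of the groups overlapped or went the other way. The mean log2 ratio was 2.75 ± 2.75 in IRI rats and 1.2 ± 0.59 in sham rats at day 2 (difference 1.56, n = 3 each, exact permutation p = 0.5), where IRI rat 13 with its 27 reads against 0 stands alone at 5.78. Without that rat the difference of day 2 was 0.041. The mean log2 ratio was 0.86 ± 0.64 in IRI rats and -0.16 ± 0.99 in sham rats at day 3 (1.02, exact permutation p = 0.3), and -0.27 ± 1.25 in IRI rats and 0.55 ± 1.21 in sham rats at day 7 (-0.83, exact permutation p = 0.4). Averaged over the 5 days the rats had -0.55, 0.74 and 1.53 in the IRI group and 1.11, 0.68 and 0.83 in the sham group. The means of 0.58 ± 1.05 in IRI rats and 0.87 ± 0.22 in sham rats did not part (difference -0.30, exact permutation p = 0.8), and the 3 sham rats lay closer together than the 3 IRI rats.

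**Figure D4:**
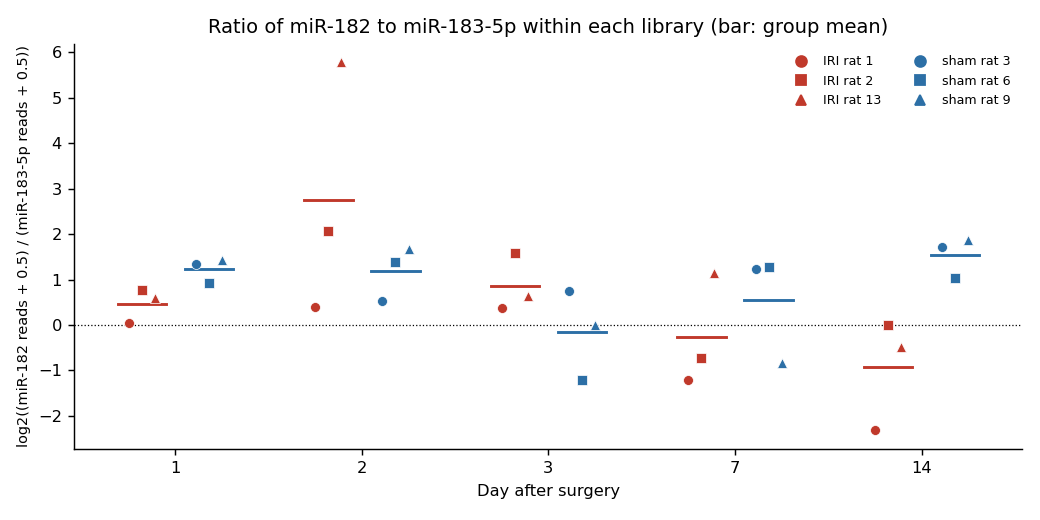
Log2 ratio of miR-182 to miR-183-5p reads, with 0.5 read added to each, on the y axis by day, 1 point for each library, IRI in red left of sham in blue, bars at group means and a dotted line at equal reads. IRI rats lie below sham rats at days 1 and 14, and IRI rat 13 at day 2 (27 reads against 0) stands at 5.78.

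The miR-200 family (miR-429, miR-200c-3p, miR-200b-3p, miR-200a-3p and miR-141-3p), known for holding cells in the epithelial state by acting on ZEB1 and ZEB2, served as a comparison, since all 5 of its members were listed on every day. The difference of miR-182 from the summed family, on the log2(value + 500) scale, was lower in every IRI than in every sham rat at days 7 and 14. The mean was -4.08 ± 1.27 in IRI rats and -1.35 ± 1.16 in sham rats at day 14 (difference -2.73, n = 3 each, exact permutation p = 0.1, 0.25 after adjustment over 5 days). At day 7 it was -3.06 ± 0.82 in IRI rats and -1.67 ± 0.60 in sham rats (difference -1.39, exact permutation p = 0.1, adjusted 0.25). At days 1, 2 and 3 the groups overlapped, with differences of -0.53, -1.77 and -0.95. The share of other miRNAs that lie in such an order against the family was not counted. At day 7 miR-182 itself overlapped between groups, on 1 to 5 reads in IRI and 2 to 8 in sham libraries. The summed family itself differed by 1.1 at day 1, 0.65 at day 2, 1.51 at day 3, 0.24 at day 7 and -0.12 at day 14. At days 1 and 3 the negative relative values therefore stand beside positive differences of both miR-182 and the family. At day 14 the relative difference is close to the -2.85 of miR-182 itself and adds little to it.

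The miRNAs whose pattern was most like that of miR-182 over the 30 libraries, after the mean of each day was taken off, were miR-29a-3p (Pearson r = 0.54), known for acting on collagen messenger RNAs, let-7a-5p (0.48) and miR-30e-3p (0.45). miR-183-5p came seventh of 55 for miR-182, with r = 0.39. For miR-183-5p the closest were let-7a-5p (0.48), miR-182 (0.39) and miR-192-5p (0.38), a miRNA abundant in kidney tubules. For miR-192-5p Spearman's rho was 0.09, and r was 0.15 once group means were taken off as well, so that its place rests on the Pearson measure and on the groups. The median r over all other miRNAs was 0.06 for miR-182 and 0.04 for miR-183-5p. The 30 points come from 6 rats and share their library and its depth, so that the values are descriptions only.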

How the data were processed

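Small RNA of urinary exosomes of 3 IRI and 3 sham rats at 5 days gave 30 libraries, which were grouped by the labels. Libraries were made with the QIASeq miRNA kit. The authors trimmed reads with Cutadapt, aligned them to the rat genome (version 5) with Bowtie and the miRDeep2 mapper in CAP-miRseq, counted with HTSeq and tested with edgeR. Tool versions are not given in the sources used here. The deposited signal values are counts scaled by the authors, 1 table a day, by a method not given in the sources used here, with column sums of 742597 to 1906282. The tables also hold the authors' fold changes, mean log levels, likelihood ratios and p-values, which were not used.

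The members, lists and tests were chosen with earlier results of these data known. The text names the members, their opposite arms, listed miRNAs with the same seed, the 3 miRNAs most like miR-182 and miR-183-5p, and the miR-200 family. Values up to 20 reads are whole multiples of a step in each library, taken as the worth of 1 read. The largest deviation from a whole number was 0.0195 reads, and each library offered 20 to 67 such values. Steps ran from 22.7 to 3992. Reads of the 3 deepest libraries may be off by about 1. A value of 0 allows up to 3 reads, and limits and intervals cover counting error only.

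Values were compared as log2(value + 500) with limma 3.58.1 in R 4.3.3, with no filter, Benjamini-Hochberg adjustment over the table and a threshold of 0.05. Contrasts across days used all 30 libraries. Ratios were tested with 2-sided exact permutation tests written in Python 3.11.15 with NumPy 2.4.6. SciPy 1.17.1 gave their adjustment and the exact intervals. Samples of the same rat recur on every day per the labels, which pairs them. Deviations from the group means correlated with a median r of 0.108 over 60 pairs of the same rat and of -0.06 over 120 pairs of other rats. The fit was tested on simulated data with the depths of the libraries. Identical libraries were looked for, and 0 pairs were found. Alternatives were constants of 50, 2000 and 0.5 read, 2 scalings, an intensity trend, only miRNAs with reads in 5 or more libraries, lane as a term, the rat as a block, and leaving out each rat. Leaving out each day, 0.5 read across days and the lane term for counts were added after seeing the data.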

Additional observations from a re-analysis of the deposited data

Results flagged for a closer look

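In the main fit the difference between IRI and sham rats in miR-182 passed the threshold for a change from the first to the last day, a call that other settings lost. It was 0.57 at day 1 and -2.85 at day 14 on the log2(value + 500) scale, and the test of the change itself gave 3.41 (SE 0.89, limma adjusted p = 0.0443, 30 libraries of 6 rats). At day 14, 3 of 3 IRI rats were below all sham rats, and at day 1 the groups overlapped. The call was lost without IRI rat 1 (2.138, limma adjusted p = 0.404), without sham rat 3, 6 or 9 (0.196, 0.213 and 0.132), and with a constant of 50, median centring or the same total (0.148, 0.0936 and 0.130). Its parts from depth and lane were not tested. The contrast was chosen with earlier results of these data known, and its p was adjusted over miRNAs and not over the other tests of miR-182. For miR-183-5p, in the same libraries, the change was 1.69 (limma adjusted p = 0.537). Whether the changes of miR-182 and miR-183-5p differ from each other was not tested.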

How the results depend on the processing

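Over the results on the members and the counts of miRNAs past the threshold, 153 of 190 values under other settings kept their direction and side of the threshold, or stayed within 1.5 times for counts, while 27 counts moved further, 5 values turned sign, 3 lost the threshold and 2 passed it. With a rat left out 144 of 174 kept, 17 moved, 8 turned sign, 4 lost it and 1 passed it. Limits are 3 rats a group, lane moving with group, and depth, since 12 libraries hold 5 or fewer reads of miR-182 and 20 of miR-183-5p. The planned count test on recovered reads was not run, because too few low values showed the step. The cause of a change was not tested.

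miR-182 at day 14 passed with a constant of 2000 (-1.94, limma adjusted p = 0.0458) and an intensity trend (-2.85, 0.0357), and ran from -3.37 to -2.03 with a rat left out. Its day 1 minus day 14 change missed the threshold with a constant of 50 (4.65, limma adjusted p = 0.148), median centring (3.31, 0.0936) and the same total (3.04, 0.130), and ran from 2.138 to 4.11 with a rat left out. Its change from days 1 and 2 to days 7 and 14 ran from 0.91 to 2.41 with a rat left out, and passed without IRI rat 13 (2.41, limma adjusted p = 0.0475). With the rat as a replicate block (correlation 0.106) the changes of miR-182 were 3.41 (limma adjusted p = 0.0283) and 1.72 (0.120), and the block altered no call.

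Signs turned for the following differences, none of which passed the threshold. For miR-183-5p, day 3 ran from -0.79 to 0.066 and day 7 from -0.46 to 0.13 with a rat left out, and rat means were 0.089 without day 2. Its change from days 1 and 2 to days 7 and 14 was -0.40 with a constant of 50 and -0.43 with 0.5 read, and ran from -0.54 to 0.59 with a rat left out. miR-96-5p had -0.46 at day 1 with lane as a term and -0.32 at day 2 with 0.5 read, and ran from -0.10 to 0.66 and from -0.13 to 0.62 with a rat left out. The 5-day ratio ran from -0.78 to 0.26.

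At days 1, 2, 3, 7 and 14 the number of miRNAs past the threshold was 1, 1, 1, 2 and 0. It was 9, 1, 1, 3 and 3 with a constant of 50, 1, 2, 0, 1 and 2 with 2000, 2, 2, 0, 2 and 0 with 0.5 read, 3, 1, 0, 2 and 0 with median centring, 4, 1, 1, 2 and 0 with the same total, 0, 2, 2, 0 and 4 with a trend, 1, 0, 0, 0 and 0 after the filter, 0 at days 1, 2 and 14 with lane as a term, and 13, 9, 5, 4 and 9 unadjusted. With a rat left out it ran from 1 to 3, 0 to 1, 0 to 1, 0 to 2 and 0 to 1.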
